A study of Mus musculus with 20 samples.

Results

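This report describes 8 genes of the mouse kidney, Ddx6, Ago2, Pcyt1a, Zbtb20, Add3, Slc25a44, Ankrd33b and Zfp277, through all 19 probe sets that stand for them on an expression array of 22626 tested probe sets and 12393 named genes. A probe set is a group of short DNA probes that reads 1 stretch of a transcript, so a gene with several probe sets is measured several times on the same array. The genes were chosen because a single probe set of each differed between control and doxorubicin injected female kidneys. That comparison is therefore given for them as a description without a test, and so are the comparisons of the sexes, which share those animals. The differences that chose the genes were those of the females, and doxorubicin was tested in males. The females' p-values came from a fit that estimates 1 spread over all 20 arrays, so the spread among males entered the choice while the difference between the male groups did not.

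Total RNA of whole kidneys from 20 Balb/c mice, about 10 weeks old, was measured with 1 Affymetrix mouse expression array per animal. There were 5 healthy control males, 5 doxorubicin injected males, 5 healthy control females and 5 doxorubicin injected females. Injured animals received 12 mg/kg doxorubicin intravenously and their kidneys were taken on day 14. Doxorubicin, an anthracycline, serves here as a model of kidney injury that begins in the glomerular filter. The labels do not say whether controls received a vehicle, and the RNA is that of the whole organ, in which fewer cells of a type and less RNA per cell cannot be told apart. Animals are named here by the letter of their sex and the number in their label. These numbers come in series, plain, 10-, 30- and No, and the labels do not say what a series is. All levels below are log2 GCRMA intensities, all differences are in log2 units, doxorubicin minus control unless said otherwise, and levels of different probe sets are not compared as amounts of RNA.

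Ddx6 and Ago2 act on RNA. Ddx6 is a DEAD-box RNA helicase of P-bodies that holds messenger RNAs in a silent state and passes them to decapping, and Ago2 is the Argonaute protein that carries small RNAs in the silencing complex and can cut a matched target. Pcyt1a is the alpha form of the enzyme that makes CDP-choline, the rate-limiting step of the route to phosphatidylcholine. Zbtb20 is a transcriptional repressor with a BTB domain and zinc fingers, Add3 is gamma-adducin, which caps actin filaments and joins them to spectrin under the plasma membrane, and Slc25a44 carries branched-chain amino acids into mitochondria. Zfp277 encodes a zinc finger protein and Ankrd33b a protein with ankyrin repeats. Many transcripts have alternative ends or exons, so 2 probe sets of a gene can read different transcript forms or different distances from the poly(A) tail. In the RefSeq annotation of GRCm38.p6 the genes lie on chromosome 9 from 44602983 to 44640731 (Ddx6), chromosome 15 from 73101625 to 73184947 (Ago2), chromosome 16 from 32430921 to 32475065 (Pcyt1a), chromosome 16 from 42875689 to 43634392 (Zbtb20), chromosome 19 from 53140443 to 53247326 (Add3), chromosome 3 from 88410494 to 88425141 (Slc25a44), chromosome 15 from 31291479 to 31367802 (Ankrd33b) and chromosome 12 from 40315046 to 40445790 (Zfp277). The place of each probe set within its gene was not analysed here.

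In doxorubicin injected females 7 of the genes had a probe set that was lower in each of the 5 animals than in each of the 5 control females, and the eighth, Zfp277, was higher. The 7 lower ones, called lead probe sets here, were each the probe set of their gene with the smallest p among those with a lower mean. Their differences ran from −0.82 for Ankrd33b to −3.18 for Ago2. At an adjusted p under 0.04 in limma, 8 of 22626 probe sets (0.0354%) were lower in females and 1 (0.00442%) was higher, or 9 (0.0398%) in all, and the members held 7 and 1 of these. This follows from how the genes were chosen. The remaining one, 1456054_a_at, differed by −1.26 and has no gene named here. The members nearest the threshold were Zfp277 (0.35), Ago2 and Ankrd33b, all with an adjusted p of 0.0396 in limma. Just outside it lay probe sets of Macroh2a1 (−0.58), Csnk2a1 (−1.80) and Snx6 (−0.59), all with an adjusted p of 0.0402 in limma. Over all 19 probe sets, 9 were lower in every injected female than in every control female, 1 was higher and 9 overlapped. Of all probe sets on the array, 1.07% were lower and 0.605% higher in this sense.

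**Figure D1:**
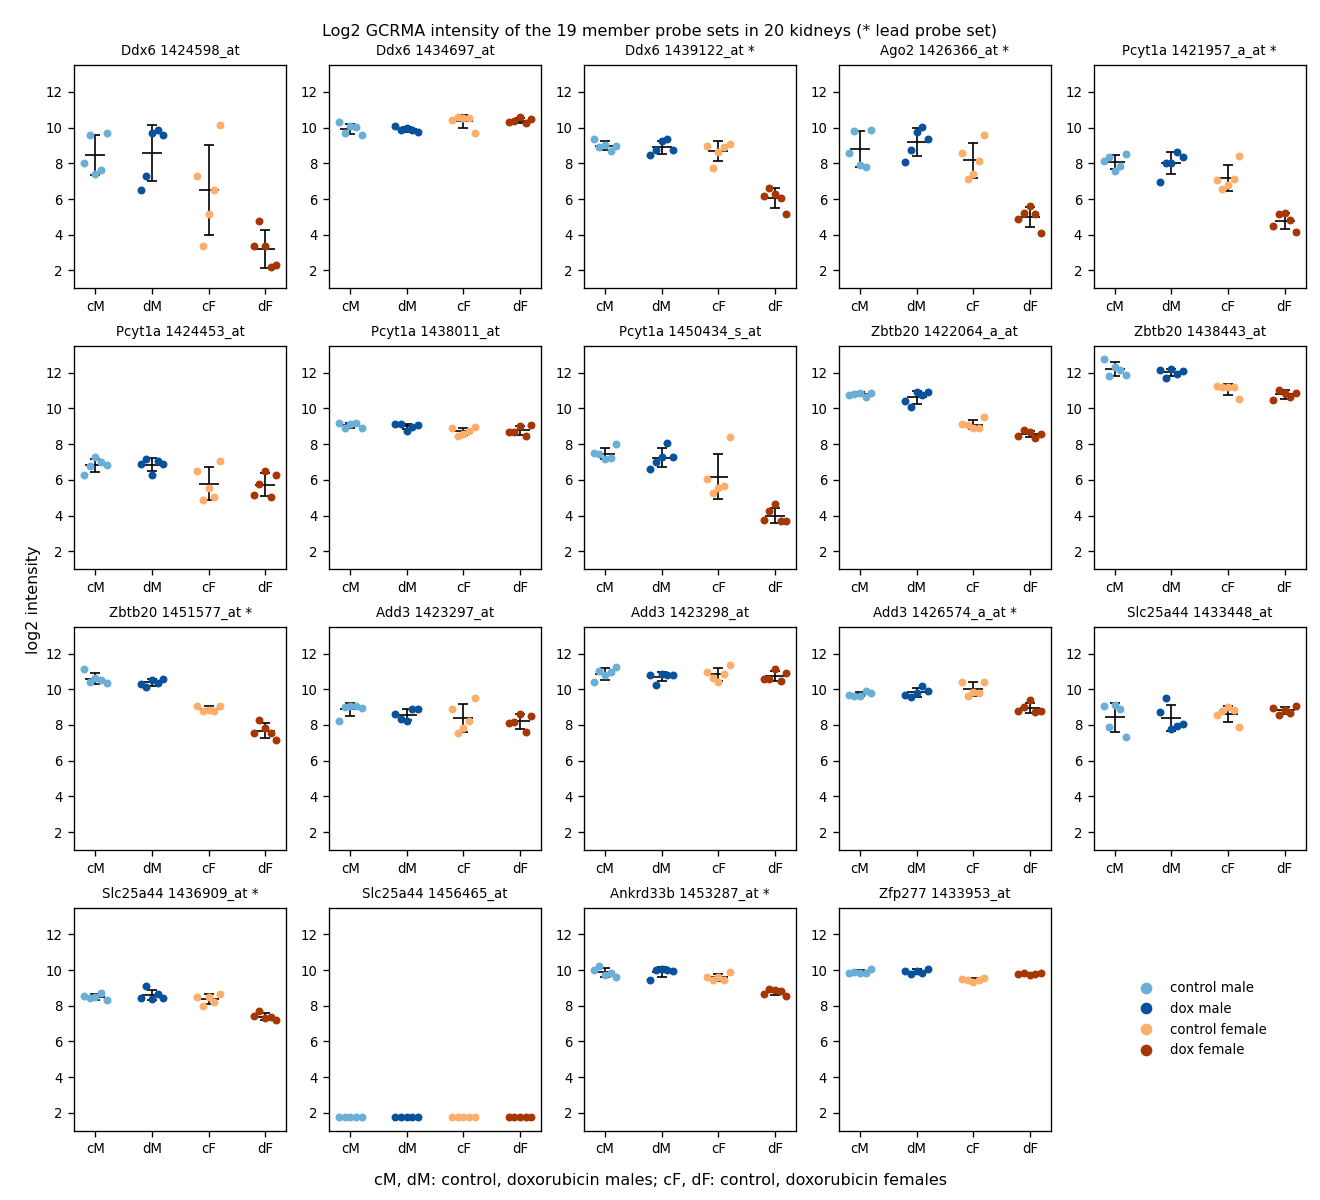
Log2 GCRMA intensity (vertical axis) of the 19 probe sets of the 8 genes, 1 panel each, in 5 control males (cM), 5 doxorubicin males (dM), 5 control females (cF) and 5 doxorubicin females (dF). Points are animals, bars are the mean and SD, and an asterisk marks a lead probe set. The lead probe sets are lower in the doxorubicin females, while Ddx6 1434697_at, Pcyt1a 1424453_at and 1438011_at and the other probe sets of Add3 and Slc25a44 overlap between the female groups.

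Ddx6 was read by 3 probe sets, which gave 3 different pictures. The lead probe set 1439122_at was at 8.98 in F1, 7.76 in F10-1, 8.66 in F10-2, 8.93 in F30-6 and 9.11 in FNo5 among control females, and at 6.18 in F3, 6.61 in F4, 6.31 in F5, 6.04 in F10-3 and 5.14 in F10-4 after doxorubicin. The 2 groups were more than 1 log2 unit apart at their nearest animals, and the means differed by −2.63 (SE 0.27), a 6.20-fold lower level. In control males this probe set was at 9.35, 8.90, 9.04, 8.71 and 8.99 (M30-1, M13, M30-2, M30-5 and M12), and in doxorubicin males at 8.48, 8.75, 9.23, 9.34 and 8.76 (M30-3, M30-4, M7, M9 and M11). The male groups overlapped with each other and with the control females.

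The second Ddx6 probe set, 1434697_at, was the brightest. It lay between 10.27 and 10.59 in doxorubicin females and between 10.42 and 10.62 in 4 of the 5 control females, with FNo5 at 9.68. The difference was 0.04 (SE 0.16), with a 95% interval of −0.29 to 0.38. The stretch that 1434697_at reads thus gave no lower level in the animals in which 1439122_at was lowest.

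The third Ddx6 probe set, 1424598_at, was the most variable of the 19. Control females were at 7.30 in F1, 3.37 in F10-1, 5.14 in F10-2, 6.53 in F30-6 and 10.15 in FNo5. Doxorubicin females were at 3.37 in F3, 4.77 in F4, 3.37 in F5, 2.20 in F10-3 and 2.29 in F10-4, the last 2 under the background of 2.84 estimated from Y-linked probe sets in females. The difference of the means, −3.29, was the largest of any member probe set, but its SE was 1.03 and the groups overlapped, since F10-1 was as low as the injected animals. In males it ran from 6.51 to 9.85. Relative to the mean of the other Ddx6 probe sets on the same array, doxorubicin females differed from control females by −1.01 (SE 0.32) for 1439122_at and 3.01 (SE 0.73) for 1434697_at. The value of 3.01 reflects the lower levels of the other probe sets, as 1434697_at itself differed by 0.04.

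Ago2 was read by a single probe set, 1426366_at, so no second reading of its transcript was at hand. Control females were at 8.57 in F1, 7.15 in F10-1, 7.42 in F10-2, 8.13 in F30-6 and 9.59 in FNo5. Doxorubicin females were at 4.87 in F3, 5.24 in F4, 5.62 in F5, 5.15 in F10-3 and 4.09 in F10-4. All 5 injected animals were below all 5 controls, and the means differed by −3.18 (SE 0.53), or 9.07-fold. Control males were at 8.58, 9.83, 7.93, 7.82 and 9.86 and doxorubicin males at 8.08, 8.74, 9.77, 10.05 and 9.35, in the order given for Ddx6. The male groups overlapped over almost their whole range.

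Pcyt1a was read by 4 probe sets, of which a pair differed in females and a pair did not. The lead probe set 1421957_a_at was at 7.06, 6.59, 6.78, 7.11 and 8.41 in control females (F1, F10-1, F10-2, F30-6 and FNo5) and at 4.51, 5.18, 5.21, 4.84 and 4.13 in doxorubicin females (F3, F4, F5, F10-3 and F10-4), a difference of −2.41 (SE 0.35). The probe set 1450434_s_at, whose suffix marks probes that may match transcripts of more than 1 gene, ran from 5.27 to 8.38 in control females and from 3.70 to 4.63 after doxorubicin, a difference of −2.18 (SE 0.45). Neither pair of female groups overlapped. The other pair, 1424453_at and 1438011_at, gave −0.06 (SE 0.39) and 0.06 (SE 0.12), with overlapping groups.

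The probe sets of Pcyt1a also differed in their spread. In doxorubicin females 1438011_at stayed between 8.47 and 9.07, and in all 20 kidneys between 8.46 and 9.19. Relative to the other Pcyt1a probe sets on the same array, the difference in females was −1.69 (SE 0.27) for 1421957_a_at, −1.37 (SE 0.28) for 1450434_s_at, 1.45 (SE 0.30) for 1424453_at and 1.61 (SE 0.31) for 1438011_at. The 4 readings of this gene thus fell into a lower and a higher pair, relative to one another, on the same arrays. These 4 values are not independent, since each probe set is set against the others. The differences of 1424453_at and 1438011_at themselves were −0.06 and 0.06.

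Zbtb20 was lower in doxorubicin females by all 3 probe sets, and unequally so. The lead probe set 1451577_at was at 9.09, 8.79, 8.83, 8.79 and 9.09 in control females and at 7.53, 8.28, 7.85, 7.54 and 7.17 in doxorubicin females, a difference of −1.24 (SE 0.18). The probe set 1422064_a_at was at 8.88 to 9.51 in controls and 8.34 to 8.79 after doxorubicin, a difference of −0.53 (SE 0.15), and the groups did not overlap. The brightest, 1438443_at, differed by −0.29 (SE 0.18) and its groups overlapped. Zbtb20 also differed in level between the sexes, by all 3 probe sets. The lead probe set lay at 10.15 to 11.11 in the 10 males, above all 10 females, and the means of the control groups were 8.92 ± 0.16 in females and 10.60 ± 0.31 in males (SD, n = 5). The other Zbtb20 probe sets gave 9.10 ± 0.25 against 10.80 ± 0.10 (1422064_a_at) and 11.08 ± 0.30 against 12.20 ± 0.38 (1438443_at) in control females and males (SD, n = 5). Of the 19 member probe sets, 4 were lower in every control female than in every control male, that of Zfp277 among them. The share of all probe sets that separate the sexes in this way was not counted. The study reported many transcripts that differ between healthy male and female kidneys, so this is not a trait particular to Zbtb20.

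For Add3 the lead probe set 1426574_a_at was at 10.43, 9.65, 9.83, 9.77 and 10.39 in control females and at 8.80, 8.99, 9.42, 8.75 and 8.80 in doxorubicin females, a difference of −1.06 (SE 0.16). The suffix of this probe set marks a match to alternative transcripts of a gene. The probe sets 1423297_at and 1423298_at differed by −0.19 (SE 0.31) and −0.12 (SE 0.19), and their female groups overlapped. Relative to these, the lead probe set differed by −0.90 (SE 0.16).

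For Slc25a44 the lead probe set 1436909_at was at 8.47, 8.01, 8.49, 8.20 and 8.68 in control females and at 7.40, 7.72, 7.32, 7.35 and 7.19 in doxorubicin females, a difference of −0.97 (SE 0.15). The probe set 1433448_at gave 0.21 (SE 0.37), with a control range of 7.86 to 9.03 and a doxorubicin range of 8.57 to 9.07. The third, 1456465_at, stood at 1.76 to 1.78 on all 20 arrays, under the background, and gave no measurement. It also enters the mean of the other probe sets against which the lead probe set differed by −1.08 (SE 0.20).

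Ankrd33b and Zfp277 each had 1 probe set. Ankrd33b 1453287_at was at 9.61, 9.45, 9.60, 9.42 and 9.89 in control females and at 8.67, 8.94, 8.90, 8.80 and 8.55 in doxorubicin females, a difference of −0.82 (SE 0.13). Zfp277 1433953_at was at 9.51, 9.45, 9.32, 9.44 and 9.57 in control females and at 9.80, 9.85, 9.74, 9.79 and 9.85 in doxorubicin females. It was thus higher and not lower, by 0.35 (SE 0.06), the smallest difference of the 8, and it does not belong to a group of falls. The doxorubicin females reached the level of the males, who lay at 9.78 to 10.06.

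**Figure D2:**
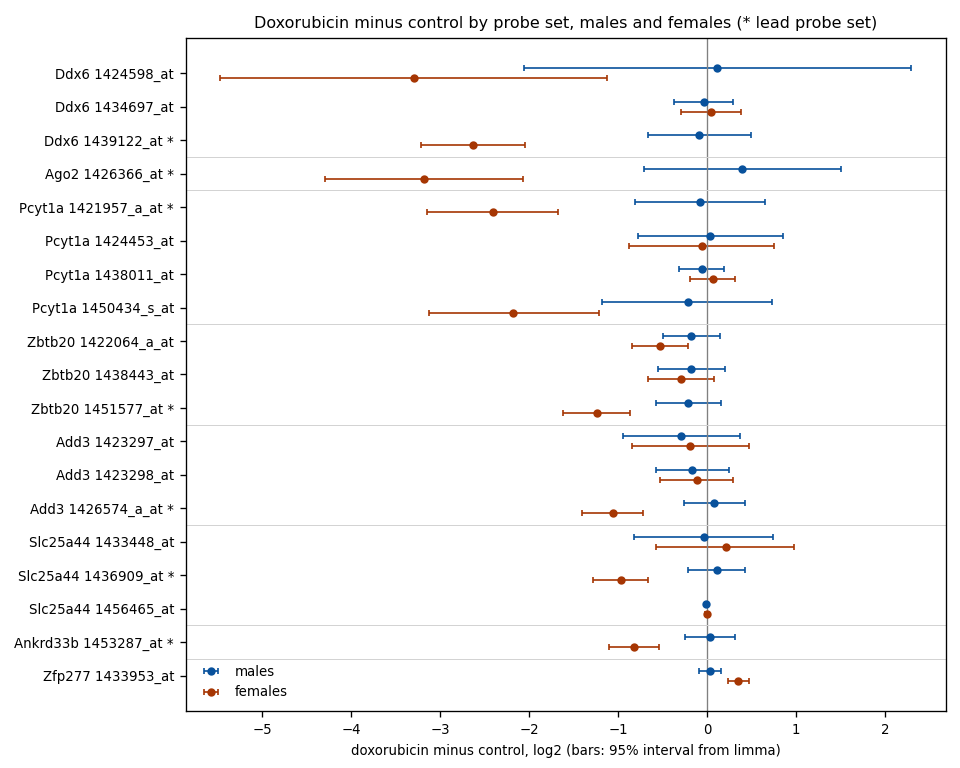
Difference between doxorubicin and control kidneys (horizontal axis, log2) with its 95% interval from limma, for each of the 19 probe sets (vertical axis, grouped by gene, asterisk for a lead probe set), in males (blue) and females (brown). The males lie between −0.29 and 0.39 with every interval across 0, and the females reach −3.29, with Zfp277 at 0.35.

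In males, whose difference did not enter the choice, none of the 19 probe sets passed an adjusted p under 0.03 in limma, and all 19 overlapped between control and doxorubicin animals. At this threshold 12 of 22626 probe sets passed (0.053%), 5 lower (0.0221%) and 7 higher (0.0309%), and 1.4% of all probe sets did not overlap. The member differences ran from −0.29 to 0.39, 12 of 19 had a lower mean, and the smallest adjusted p in limma was 0.72. None of the 19 had an unadjusted p under 0.05, while 1704 of 22626 did. For Ddx6 1439122_at the difference was −0.09 (SE 0.27), with a 95% interval of −0.66 to 0.49. For Ago2 it was 0.39 (SE 0.53, interval −0.71 to 1.50), and for Pcyt1a 1421957_a_at −0.08 (SE 0.35, interval −0.81 to 0.65). Zbtb20 1451577_at differed by −0.21 (SE 0.18, interval −0.58 to 0.16).

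The remaining lead probe sets were close to 0 in males. Add3 1426574_a_at gave 0.08 (SE 0.16), Slc25a44 1436909_at 0.11 (SE 0.15) and Ankrd33b 0.03 (SE 0.13). Zfp277, which has no lead probe set, gave 0.03 (SE 0.06). The lower ends of the male intervals of the 7 lead probe sets were above the female differences, but whether males and females responded differently was not tested, since the females chose the genes. For 1424598_at of Ddx6 the male interval, −2.06 to 2.29, was too wide to place the difference.

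Whether a probe set moved otherwise than the rest of its gene was tested in males for 12943 probe sets of 4956 genes with 2 or more, each taken as its difference from the mean of the gene's other probe sets on the same array. None of the 16 probe sets of the 5 member genes with several passed, and none of the 12943 did (0%) at an adjusted p under 0.03 in limma, while 761 had an unadjusted p under 0.05. The largest member value in males was 0.31 (SE 0.16, adjusted p = 0.87 in limma) for Add3 1426574_a_at, against the direction seen in females. For Ddx6 1439122_at it was −0.12 (SE 0.32), for Pcyt1a 1421957_a_at 0.00 (SE 0.27), for Zbtb20 1451577_at −0.03 (SE 0.13), and for Slc25a44 1436909_at 0.13 (SE 0.20). In females, as a description, 14 of the 12943 (0.108%) were lower and 5 (0.0386%) higher at an adjusted p under 0.04. A gene with 2 probe sets gives mirror-image values and so counts in both directions, as Zfp445 did (−1.6 and 1.6). The lead probe sets of Pcyt1a, Zbtb20, Add3 and Slc25a44 were among the 14, and that of Ddx6 was not (adjusted p = 0.23 in limma).

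Some member probe sets differed between males of different number series. The 10 males carry 30- numbers (M30-1, M30-2, M30-5, M30-3 and M30-4) or plain numbers (M12, M13, M7, M9 and M11), and both series hold control and injected animals. With treatment as a term, 4 of the 19 probe sets differed between the series at an adjusted p under 0.05 in limma, against 14.1% of all 22626 (6.01% lower and 8.04% higher in the 30- animals). Ddx6 1424598_at was at 6.51 to 8.03 in the 30- males and 9.57 to 9.85 in the plain ones, a difference of −2.38 (SE 0.23, adjusted p = 0.000698 in limma). Ago2 was at 7.82 to 8.74 against 9.35 to 10.05, a difference of −1.52 (SE 0.22, adjusted p = 0.00376 in limma). Slc25a44 1433448_at went the other way, at 8.71 to 9.52 against 7.30 to 8.06, a difference of 1.31 (SE 0.18, adjusted p = 0.00284 in limma). Pcyt1a 1438011_at was higher in the 30- males by 0.22 (SE 0.06, adjusted p = 0.0348 in limma). In each of the 4 the series did not overlap, as for 12.8% of all probe sets.

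**Figure D3:**
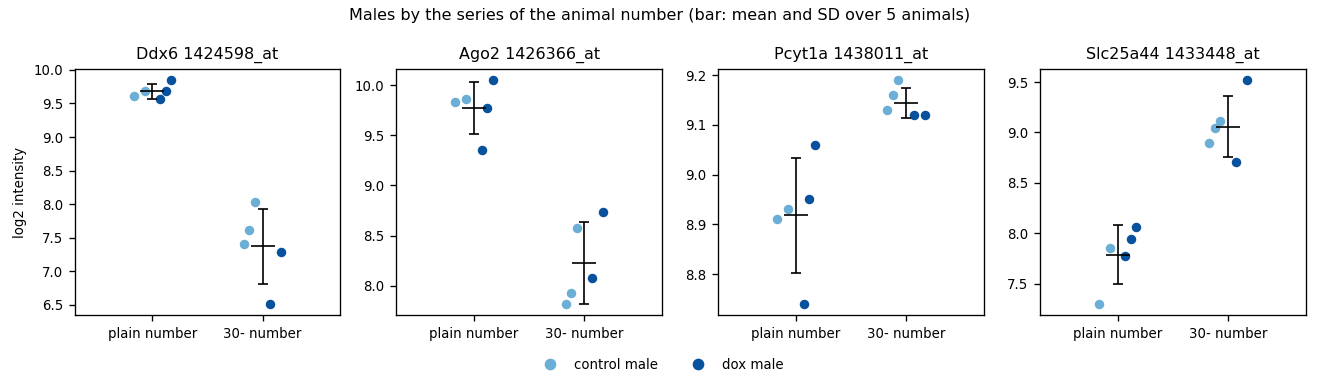
Log2 GCRMA intensity (vertical axis, scaled to each panel) of the 4 member probe sets that differed between males with a plain number and males with a 30- number (horizontal axis). Points are animals, light blue for control and dark blue for doxorubicin, and bars are the mean and SD over 5 animals. Ddx6 1424598_at and Ago2 are lower and Slc25a44 1433448_at and Pcyt1a 1438011_at higher in the 30- animals, in both treatments.

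The lead probe sets other than that of Ago2 did not pass between the series. Ddx6 1439122_at differed by −0.21 (SE 0.19), Pcyt1a 1421957_a_at by −0.71 (SE 0.22, adjusted p = 0.0745 in limma), Zbtb20 1451577_at by 0.07 (SE 0.16), Add3 1426574_a_at by −0.15 (SE 0.11), Slc25a44 1436909_at by 0.25 (SE 0.13) and Ankrd33b by −0.20 (SE 0.15). Within the series the male differences after doxorubicin of the 7 lead probe sets ran from −0.12 to 0.22 among the plain numbers (2 controls, 3 injected) and from −0.53 to 0.30 among the 30- numbers (3 controls, 2 injected). Several differed in sign, with Zbtb20 1451577_at at 0.14 and −0.53, Ddx6 1439122_at at 0.17 and −0.42, and Ago2 at −0.12 and 0.30 in the plain and 30- animals. In females the values within a series are part of those by which the genes were chosen and are given as a description. For Ddx6 1439122_at it was −2.61 among plain numbers (1 control, 3 injected) and −2.61 among 10- numbers (2 and 2). For Ago2 it was −3.33 and −2.67, for Pcyt1a 1421957_a_at −2.09 and −2.20, for Zbtb20 1451577_at −1.21 and −1.45, and for Zfp277 0.28 and 0.44.

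The arrays also differed in how much of a transcript's 5′ part was labelled, which bears on probe sets that lie far from the poly(A) tail. The array carries probe sets for the 3′ and the 5′ part of Actb, and the excess of the 3′ over the 5′ log2 signal grows as less of the 5′ part is labelled. It was 1.61 ± 0.19 in control males, 1.72 ± 0.15 in doxorubicin males, 2.25 ± 0.80 in control females and 2.73 ± 0.42 in doxorubicin females (SD, n = 5). In females it ran from 1.11 (FNo5) to 3.23 (F10-1) among controls and from 2.28 to 3.11 after doxorubicin. The Gapdh excess was 0.60 ± 0.66 and 0.68 ± 0.24 in the same groups (SD, n = 5). A further mark of 5′ signal, a control probe set for the 5′ part of pyruvate carboxylase, was above background on 6 arrays, those of the 5 plain-numbered males (M12, M13, M7, M9 and M11) and of FNo5.

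Of the 19 member probe sets, 2 were higher and 1 lower on all of those 6 arrays than on all of the other 14, as were 2.86% and 2.17% of all 22626 probe sets, or 5.03% in all. On those 6 arrays Ddx6 1424598_at was at 9.57 to 10.15, and on the other 14 at 2.20 to 8.03. Ago2 was at 9.35 to 10.05 on the 6 and at 4.09 to 8.74 on the 14. Slc25a44 1433448_at was at 7.30 to 8.06 and 8.56 to 9.52, in the opposite order. None of these ranges overlapped, whereas those of Ddx6 1439122_at (8.76 to 9.34 and 5.14 to 9.35) and of Zbtb20 1451577_at (9.09 to 10.59 and 7.17 to 11.11) did. The 6 arrays hold all plain-numbered males and the 14 all injected females, which were chosen as low, so these cannot be told apart here.

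**Figure D4:**
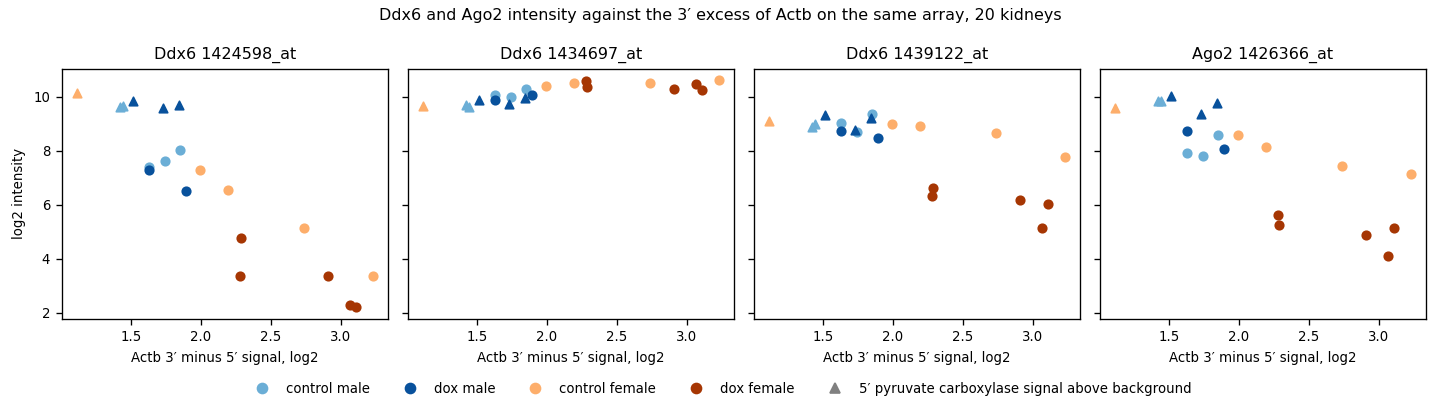
Log2 GCRMA intensity (vertical axis) of the 3 probe sets of Ddx6 and of Ago2 against the 3′ minus 5′ Actb signal of the same array (horizontal axis, log2), for 20 kidneys coloured by group. Triangles mark the 6 arrays with 5′ pyruvate carboxylase signal. Ddx6 1424598_at falls from 10.15 to 2.20 across the arrays, 1434697_at stays between 9.61 and 10.62, and 1439122_at and Ago2 are at 5.14 to 6.61 and 4.09 to 5.62 in the doxorubicin females, the values by which they were chosen.

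The control F10-1 had the largest Actb excess of all 20 kidneys, and F10-2 (2.74) exceeded the injected F4 (2.29) and F5 (2.28). In F10-1, a single animal, the lead probe set of Ddx6 was at 7.76, against at most 6.61 in the injected females, Ago2 at 7.15 against at most 5.62, and Pcyt1a at 6.59 against at most 5.21. Zbtb20 was at 8.79 against at most 8.28, Add3 at 9.65 against at most 9.42, Slc25a44 at 8.01 against at most 7.72, and Ankrd33b at 9.45 against at most 8.94. The lead probe sets were lower in every injected female than in every control female, so F10-1 could only lie above. Its position is therefore no test of the part of the 5′ signal. For Ddx6 1424598_at, F10-1 was at 3.37, inside the range of the injected females. With the Actb excess as a covariate, the female difference was −2.33 for Ddx6 1439122_at, −2.55 for Ago2, −1.97 for Pcyt1a, −1.14 for Zbtb20, −0.87 for Add3, −0.85 for Slc25a44, −0.72 for Ankrd33b and 0.38 for Zfp277. On the 14 arrays without 5′ pyruvate carboxylase signal, which leave FNo5 out of the control females, it was −2.53, −2.83, −2.11, −1.20, −0.97, −0.90, −0.75 and 0.38 in the same order. These values come from the comparison that chose the genes and were not used as a test, and the part of the 5′ signal in the female differences was not tested. The values without either change were −2.63, −3.18, −2.41, −1.24, −1.06, −0.97, −0.82 and 0.35, so that the covariate moved Ago2 by over 1.5 times as a fold. Fewer passed the adjusted p of 0.04 in limma, 3 lead probe sets with the covariate and none on the 14 arrays, against 7. On the 14 arrays Ddx6, Ago2, Pcyt1a and Zfp277 stood at an adjusted p of 0.0401 in limma.

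Over the 20 kidneys the 7 lead probe sets varied together, with pairwise correlations across animals of 0.62 to 0.97 (median 0.89 over 21 pairs). These points share the female difference by which the probe sets were chosen. With each group's mean subtracted the correlations were 0.11 to 0.89 (median 0.46), and in the 10 males −0.28 to 0.80 (median 0.23). The probe sets of other genes most like the mean of the lead probe sets over 20 kidneys were those of Csnk2a1 (r = 0.97), Slc4a4 (r = 0.97), Wasl (r = 0.96), Brd3 (r = 0.95) and Aph1a (r = 0.95). With group means subtracted they were those of Cflar, Csnk2a1, Slc4a4, Bcam and Tns1 (each r = 0.88). All points share the arrays and their labelling, and the correlations are given as a description.

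None of the other measured genes of the members' pathways passed the thresholds in limma. In females this was fixed beforehand for every list, since the 8 members were all the named genes past the threshold there. The female counts of 0 below are therefore no test of the pathways. Of 58 listed genes of messenger RNA silencing and decay beside Ddx6 and Ago2, 43 were measured and 0 passed in either sex. Measured means here that the array holds a probe set named for the gene, whether or not its level was above background. Lsm14a, Xrn1 and Dgcr8 had means of 2.30, 2.39 and 2.77 over the 20 kidneys, under the background of 2.84. Each gene is given by its brightest probe set, and 0 also passed when any probe set counted. An unadjusted p under 0.05 was reached by 3 of the 43 in each sex. Of all 12393 genes, 1049 reached it in males and 567 in females. By the brightest probe set, 5 of all 12393 passed the threshold as higher and 3 as lower in males, and 1 and 2 in females. Those in females were Zfp277, higher, and Ago2 and Ankrd33b, lower, all of them members. The median difference of the 43 was 0.04 in males and 0.04 in females, against −0.01 and 0.01 over 12393 genes. The smallest p values in males belonged to Xpo5, the exporter of microRNA precursors (0.35, SE 0.11, adjusted p = 0.38 in limma), Zfp36l1, which binds AU-rich elements (0.36, SE 0.12), and Btg2, an activator of deadenylation (0.61, SE 0.27). The same genes gave −0.03, 0.04 and −0.36 in females.

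For phosphatidylcholine synthesis 15 of 21 listed genes beside Pcyt1a were measured and 0 passed in either sex, with medians of 0.14 in males and 0.09 in females. Pemt, with a mean of 1.53, lay under background. An unadjusted p under 0.05 was reached by 2 in males and 1 in females, against 1049 and 567 of all 12393 genes. Lpcat1, which reacylates lysophosphatidylcholine, gave 0.62 (SE 0.15, adjusted p = 0.15 in limma) in males and −0.51 in females. Chpt1, which acts after Pcyt1a on CDP-choline, gave −0.22 (SE 0.08) in males and −0.01 in females. For the spectrin and actin membrane skeleton 15 of 18 genes beside Add3 were measured, 0 passed in either sex (1 and 3 at an unadjusted p under 0.05), and the medians were 0.01 and −0.02. Sptb, Ank1 and Tmod2, with means of 2.58, 2.36 and 2.46, lay under background. Epb41l1, a protein of the 4.1 family, gave 0.33 (SE 0.12) in males and 0.26 in females. Add1, alpha-adducin, the partner of Add3, gave 0.03 in males and 0.00 in females.

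For branched-chain amino acid use, 23 of 25 genes beside Slc25a44 were measured and 0 passed in either sex. In males 21 of the 23 had a lower mean, with a median of −0.23, whereas 7378 of all 12393 genes had one. An unadjusted p under 0.05 was reached by 7 of the 23 in males and 0 in females, and by 1049 and 567 of all 12393 genes. The smallest belonged to Mccc1, a subunit of methylcrotonyl-CoA carboxylase in leucine breakdown (−0.42, SE 0.09, adjusted p = 0.098 in limma), Acat1 of isoleucine breakdown (−0.45, SE 0.12) and Pcca, a subunit of propionyl-CoA carboxylase (−0.32, SE 0.09). In females the median was 0.01 and 11 of 23 had a lower mean, as did 4542 of all 12393. Slc25a44 itself gave −0.04 in males and 0.21 in females by its brightest probe set, 1433448_at, the measure used for the list. Its lead probe set, chosen on the female difference, gave 0.11 and −0.97. Of 43 listed transcription factors with a BTB domain and zinc fingers beside Zbtb20, 27 were measured, 0 passed (4 and 2 at an unadjusted p under 0.05), and the medians were −0.02 and 0.01. Zbtb3, Zbtb7c, Zbtb12, Zbtb16, Zbtb32, Zbtb33, Zbtb37, Hic1 and Hic2, with means of 1.93 to 2.65, lay under background and enter these values. Zbtb22 gave 0.48 (SE 0.15) and Zbtb44 −0.30 (SE 0.13) in males, and 0.37 and 0.38 in females.

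**Figure D5:**
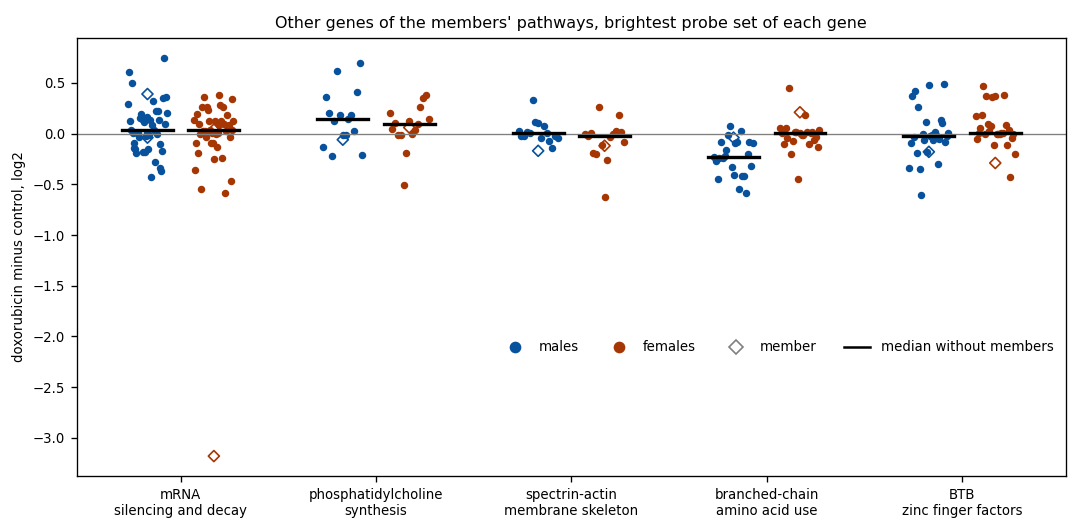
Difference between doxorubicin and control kidneys (vertical axis, log2) for the other genes of 5 pathways (horizontal axis), in males (blue) and females (brown), with the brightest probe set for each gene. Filled points are genes, black lines their medians, and open diamonds the members by their own brightest probe set. Ago2 in females, at −3.18, was chosen for this value, other members with several probe sets are not shown by their lead probe set, and the branched-chain amino acid genes have a median of −0.23 in males.

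The kidneys held the markers of their tubules, with 9 of 9 listed markers of the proximal tubule, thick ascending limb and distal tubule above background. Over all cell types 34 of 42 listed markers were measured and 0 passed in either sex, each by its brightest probe set. Some of the 34 lay under background, among them all 3 of skeletal muscle. Of all 12393 genes, read likewise, 5 passed as higher and 3 as lower in males, and 1 and 2 in females. Those in females were all members, so no marker could pass there. Summed levels of a cell type's markers did not overlap between the female groups in 2 cases. Those of red blood cells, which rest on Alas2, the erythroid enzyme of heme synthesis, with 2 of 4 markers measured and Hba-a1 under background, had a log2 sum of 5.10 to 8.42 in control females and 9.83 to 12.14 in doxorubicin females. Those of endothelium, with 5 of 5 measured, were at 10.78 to 11.28 and 10.28 to 10.71. This sum rests on its brighter genes, with female differences of −0.34 for Tek, −0.84 for Kdr and −0.60 for Flt1, while Pecam1 and Cdh5 gave 0.14 and 0.29. In males the red blood cell sum was 7.26 to 9.18 in controls and 7.44 to 12.18 after doxorubicin, and the endothelial sum 9.71 to 10.49 and 10.41 to 10.54. Their part in the differences of the lead probe sets was not tested.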

How the data were processed

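RNA was labelled with the One-Cycle kit and hybridized to M430A2.0 arrays. The authors normalized the arrays with GCRMA (version not given in the sources used here), and the deposited values are a linear intensity per probe set, which was converted to log2 with no filter or pseudocount. The 64 array control probe sets served for RNA quality alone. Of the 22626 others, 20380 stand for 1 gene, named through Entrez IDs. A single limma fit (version 3.58.1, R 4.3.3) held the 4 groups and all 20 arrays, with 16 residual and 0.78 prior degrees of freedom. P-values were adjusted over all probe sets by Benjamini-Hochberg. The thresholds of 0.03 in males and 0.04 in females follow the false discovery rates of the study's SAM analysis, which was not run here. Background was the 95th percentile of 6 Y-linked probe sets in females. The fits were tested on simulated data with known changes in the doxorubicin males alone, no other group difference and independent noise. That simulation did not cover the female comparison or arrays that differ in 5′ signal. No 2 arrays were identical (highest correlation 0.9971). Arrays are separate animals per the labels, and their number limits the precision.

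The members, lists and tests were chosen with earlier results of these data known. Named were all members and all their probe sets, at most 3 genes a list with the smallest p in males, the 5 probe sets most like the lead ones, and Add1, which was added by hand. Alternatives covered samples, priors, weights, normalization, filters, pseudocount, threshold, test, number series and RNA quality. The Actb covariate, the 14 arrays and the comparison of number series were added after the data were seen.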

Additional observations from a re-analysis of the deposited data

Results flagged for a closer look

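In 7 of 76 groups of 5 animals the gap between the highest or lowest animal and its neighbour was past Dixon's 95% limit. Chance flags about 1 in 20 independent groups, and these groups are not independent, since the same animals recur. The control female FNo5 did so for 4 probe sets. It was at 9.68 for Ddx6 1434697_at (the other control females at 10.42 to 10.62), at 8.41 for Pcyt1a 1421957_a_at (6.59 to 7.11), at 8.38 for Pcyt1a 1450434_s_at (5.27 to 6.07) and at 10.55 for Zbtb20 1438443_at (11.18 to 11.27). FNo5 is the only female with 5′ pyruvate carboxylase signal and has the smallest Actb 3′ excess, 1.11, and the part of these in its values was not tested. Among control males M30-1 was at 8.24 for Add3 1423297_at (8.97 to 9.09). Among doxorubicin males M30-4 was at 10.24 for Add3 1423298_at (10.79 to 10.88), and M30-3 was at 9.44 for Ankrd33b 1453287_at (9.97 to 10.07).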

How the results depend on the processing

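In males 0 of the member probe sets tested passed, alone (19, or 18 of them in the upper 60% by mean) or against the rest of their gene (16 or fewer), under every alternative run and without any 1 animal. In females the count of 7 lead probe sets past the threshold became 0 with only the 2 groups in the fit. It became 4 with a pseudocount of 16, 0 within the 10- numbers and 0 by the methods' t-test after Benjamini-Hochberg. With the Actb covariate it was 3, and on the 14 arrays 0. Together with the fits without 1 animal given below, 17 alternatives moved the count beyond a set factor. Not all 17 are named here. The cause of these changes was not tested. Part of these fits held fewer arrays. Leaving out 1 animal gave 1 to 7, with 1 without F1, F10-2, F3, F10-3 or F10-4, 3 without M30-1, M30-2 or FNo5, and 4 without M30-5 or M7. Ddx6 1439122_at passed in 20 of these 20 fits, with −2.86 to −2.40, and Ago2, which passed in 5, ranged from −3.44 to −2.83. No lead probe set changed sign in females. Between the male number series the count of 4 became 2 with the Gapdh excess as a covariate, and 3 to 5 without 1 animal. No paired analysis was possible because the animal numbers of the groups are not shared. Ddx6 1424598_at and Ago2 were lower on all 14 arrays without 5′ pyruvate carboxylase signal than on the others. The part of the 5′ signal in their values was not tested, which limits what can be read from them.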
